A study of Mus musculus with 20 samples.

Results

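Type I interferon response genes were followed in microglia, the resident macrophages of the brain, as a set of 40 genes chosen by symbol. A gene belonged to the set when its symbol in the deposited count table equalled one of the 40 names. All 40 were present among the 24394 genes of the table, and all 40 passed the filter on low counts that left 15568 genes for testing. The study sequenced RNA of FACS-sorted microglia from 20 mice in 6 groups, Control and T2MG at embryonic day 16 (E16) and postnatal days 15 (P15) and 60 (P60). There were 3 animals per genotype at E16 and at P15 and 4 at P60. By the genotype entry, T2MG cells lacked TGF-beta signaling; that entry was blank for P60 T2MG replicate 4, whose group was taken from its title. The series description gives the targeted gene as Tgfbr2, which encodes a subunit of the TGF-beta receptor, missing from 1 or both of its alleles, and does not say which alleles the Control animals carried. All 6 groups share the strain entry C57Bl6 and FVB. The sources used here name neither a Cre driver nor the sort markers.

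Type I interferons are cytokines of the antiviral defence that bind a receptor made of IFNAR1 and IFNAR2. The kinases JAK1 and TYK2 then activate STAT2, which joins IRF9 in a complex that binds the interferon-stimulated response element in gene promoters. Its targets include sensors of viral nucleic acid, proteins that block viral entry, translation or replication, and regulators such as IRF7, which amplifies the response, and USP18, which dampens signaling at the receptor. Microglia carry this receptor, and an interferon-responsive state of microglia is known from development, ageing and disease models.

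The deposited counts summed to 7437764 to 9221396 per library at E16, 14525739 to 16442355 at P15 and 12726594 to 16526122 at P60. Tgfbr2 lay at 196 to 293 counts-per-million (CPM, on scaled library sizes) in E16 Control and 165 to 232 CPM in E16 T2MG. At P15 it lay at 501 to 642 CPM in Control and 228 to 471 CPM in T2MG, and at P60 at 551 to 649 CPM against 452 to 647 CPM. A count over the whole gene does not show whether an exon is missing. The summed level of 10 microglia markers, such as P2ry12 and Tmem119, was 59782 to 81123 CPM in P60 Control and 13777 to 14964 CPM in P60 T2MG, and none of the 10 was at 0 in any library. The sum hides larger falls of single markers. P2ry12 was at 7541 to 14638 CPM in P60 Control and 140.4 to 217 CPM in P60 T2MG, and Tmem119 at 7481 to 8580 CPM and 45.5 to 217 CPM. Nothing in the labels states that replicate numbers mark a shared litter or day.

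The core of the interferon-stimulated response element was looked for in promoters because it is the known binding sequence of the complex described above. The search used GAAA, any 2 bases, and GAAA again, on both strands and with overlapping matches allowed, in 300 bases from 250 before to 50 after the RefSeq start (GRCm38.p6). A promoter was at hand for 31 of the 40 genes. The core was present in 19 of these 31, or 61.3%, and in 1079 of the 27025 genes with a promoter, or 3.99%. It occurred at least 2 times in 8 of the 31. A match is a description of the letters and not a shown binding site. Among the members described in detail below, Irf7, Irf9, Oasl2 and Cmpk2 had a promoter without the core. No promoter was at hand for Oas2, Mx1, Usp18 and Ifi27l2a. Each window below holds 80 bases that lie before the start, written in the direction of the gene. The members shown have the core before the start and are described in detail below. Capitals mark the core, which reads as TTTC, any 2 bases, TTTC where it lies on the other strand.
Isg15 (chr4:156200845-156200924, minus strand): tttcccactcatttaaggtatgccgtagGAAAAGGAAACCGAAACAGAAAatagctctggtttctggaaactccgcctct
Ifit1 (chr19:34640764-34640843, plus strand): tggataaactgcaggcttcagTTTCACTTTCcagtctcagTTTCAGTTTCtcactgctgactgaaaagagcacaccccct
Ifit3 (chr19:34583367-34583446, plus strand): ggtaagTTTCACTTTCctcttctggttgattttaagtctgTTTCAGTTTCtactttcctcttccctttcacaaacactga
Oas1a (chr5:120907526-120907605, minus strand): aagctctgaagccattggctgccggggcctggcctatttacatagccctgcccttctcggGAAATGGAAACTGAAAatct
Oas3 (chr5:120777695-120777774, minus strand): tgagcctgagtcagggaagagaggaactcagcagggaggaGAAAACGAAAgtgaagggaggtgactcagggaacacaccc
Bst2 (chr8:71537557-71537636, minus strand): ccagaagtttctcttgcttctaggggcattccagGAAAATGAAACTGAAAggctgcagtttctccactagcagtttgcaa
Stat2 (chr10:128270248-128270327, plus strand): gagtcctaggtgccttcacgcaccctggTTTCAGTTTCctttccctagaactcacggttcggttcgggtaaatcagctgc

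The set as a whole moved with genotype at P60. In T2MG microglia 36 of the 40 genes were higher than in Control and 0 were lower, while 23.5% of all genes tested were called higher and 15.7% lower. A gene was called at an adjusted p under 0.05 in edgeR's quasi-likelihood test, with Benjamini-Hochberg adjustment over all 15568 genes. The median log2 fold change of the 40 genes was 1.78, beside 0.14 for all genes tested, and all 40 were positive. The fold change was at least 2-fold for 34 genes. In bulk RNA, more cells with a high level and more RNA per cell cannot be told apart. The calls held in each of 8 fits that left out 1 P60 library for 29 of the 36 genes, and the other 7 lost the call in at least 1 of them.

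**Figure D1:**
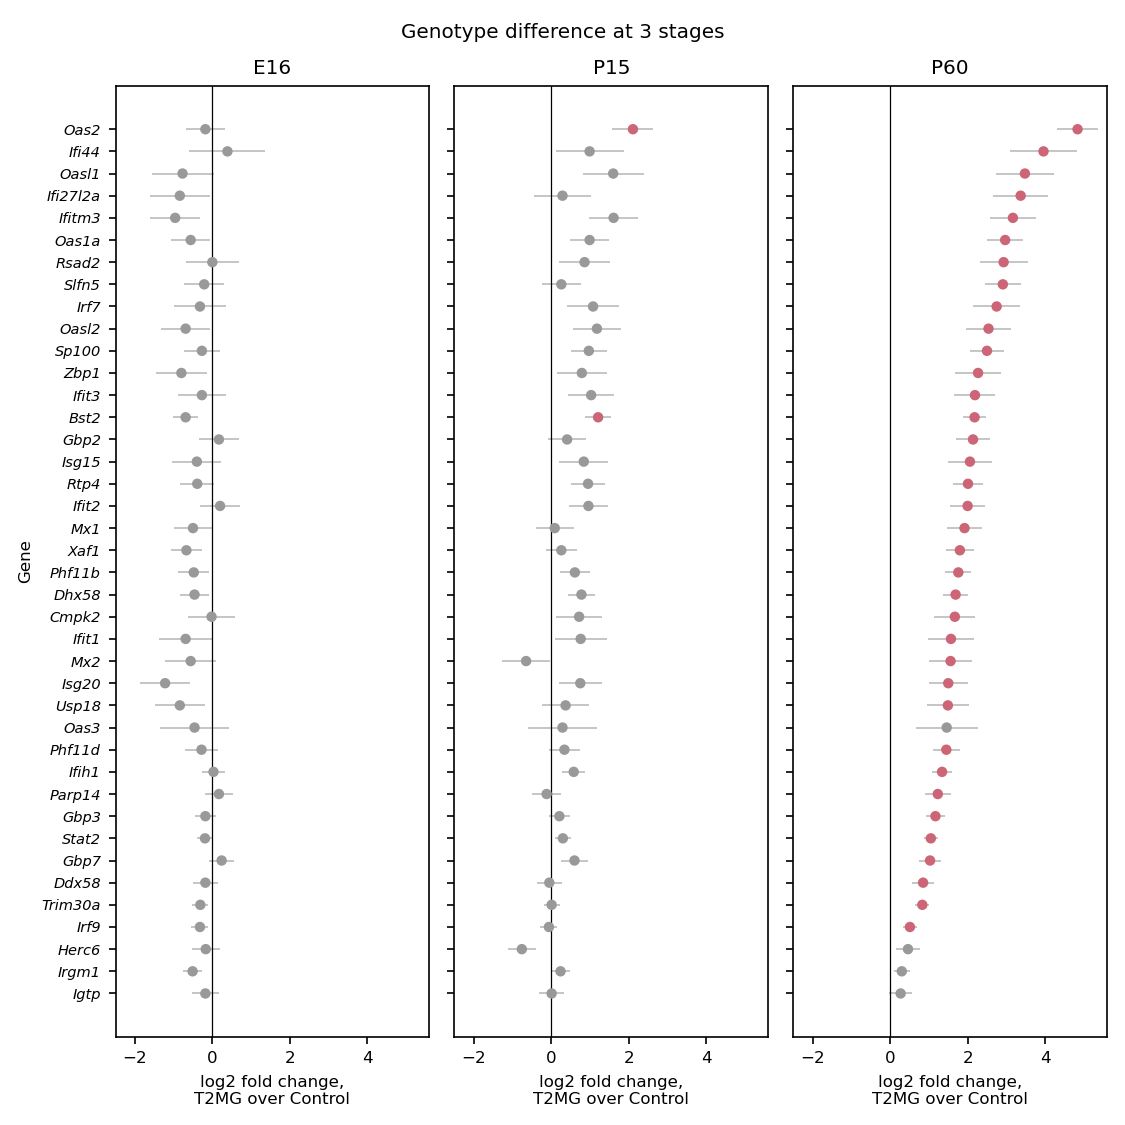
Log2 fold change of T2MG over Control for the 40 genes (rows, ordered by the P60 value) at E16, P15 and P60; points are estimates, lines are standard errors, and red marks a call at an adjusted p under 0.05. At P60 all 40 points lie right of 0 and 36 are red; at P15 only Oas2 and Bst2 are red, and at E16 none is.

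The 3 transcription factors of the set were all higher in T2MG at P60. Irf7, the amplifier of the response, was counted at 50.2, 11.2, 25.9 and 13.8 CPM in the 4 Control libraries and at 197, 106, 119 and 260.1 CPM in the 4 T2MG libraries. The groups did not overlap, and the log2 fold change was 2.75 (SE 0.61, adjusted p = 0.00172, edgeR). Stat2, a subunit of the DNA-binding complex, was at 26.7, 20.4, 28.2 and 21.2 CPM in Control and at 55.6, 48.1, 40.8 and 54.8 CPM in T2MG. Its libraries lay close together within each genotype, and its log2 fold change of 1.05 (SE 0.18, adjusted p = 0.000143, edgeR) was smaller but more precise than that of Irf7. Irf9, its partner in the complex, was at 166, 124, 128 and 111 CPM in Control and at 179.7, 179, 191 and 201 CPM in T2MG. The groups did not overlap, but the log2 fold change was only 0.51 (SE 0.19, adjusted p = 0.0424, edgeR). This call was lost in 7 of the 8 fits without 1 P60 library, with an adjusted p of up to 0.12 (edgeR). Only the fit without Control replicate 1 kept it.

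The oligoadenylate synthetase family, whose enzymes make the messenger that activates RNase L and thereby RNA decay, held the highest fold change of the set. Oas2 was at 5.75, 1.92, 2.46 and 1.04 CPM in P60 Control and at 78.9, 89.5, 72.3 and 83.9 CPM in P60 T2MG. Every T2MG library lay far above every Control library, a log2 fold change of 4.84 (SE 0.52, adjusted p = 1.14e-06, edgeR) or 28.7-fold. Oas1a was at 21.6, 12.6, 9.70 and 7.12 CPM in Control and at 103, 83.2, 89.7 and 124 CPM in T2MG. It was likewise without overlap, with a log2 fold change of 2.97 (SE 0.47, adjusted p = 8.08e-05, edgeR). Oasl2, a family member with a ubiquitin-like domain, was at 32.4, 15.5, 26.4 and 17.4 CPM in Control and at 146, 93.4, 110.4 and 183 CPM in T2MG. Its log2 fold change was 2.54 (adjusted p = 0.00191, edgeR). Oasl1, an inhibitor of Irf7 translation in mice, had a log2 fold change of 3.48 (adjusted p = 0.00111, edgeR). Oas3 was the exception in the family, at 11, 0.994, 0.651 and 0.800 CPM in Control and at 12.3, 4.01, 5.38 and 15.6 CPM in T2MG. Replicate 1 of Control lay within the T2MG range, and the log2 fold change of 1.46 did not pass the test (SE 0.80, adjusted p = 0.16, edgeR).

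The membrane restriction factors rose and were among the most abundant members. Ifitm3, which blocks fusion of enveloped viruses, was at 133, 15.8, 23.8 and 20.4 CPM in P60 Control and at 439, 360.2, 472 and 469 CPM in P60 T2MG. Control replicate 1 stood above the other 3 Control libraries but below all T2MG libraries, and the log2 fold change was 3.17 (SE 0.59, adjusted p = 0.000386, edgeR). Without that library it was 4.44 (adjusted p = 2.33e-07, edgeR). Bst2, or tetherin, which holds budding virus on the cell surface, was at 77.7, 58.1, 59.7 and 61.3 CPM in Control and at 297, 252, 266 and 345 CPM in T2MG. Its groups were tight and apart, with a log2 fold change of 2.18 (SE 0.30, adjusted p = 1.57e-05, edgeR). Per kilobase of exon, Ifitm3 ranked highest of the 40 genes in P60 T2MG, at 641 ± 76.8 RPKM (CPM per kilobase, mean ± SD, n = 4), followed by Ifi27l2a at 475 ± 232 and Bst2 at 321 ± 45.8 RPKM. Oas3 ranked lowest, at 1.32 ± 0.784 RPKM.

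Of the 3 genes of the ISG15 system, Isg15 and Usp18 were called and Herc6 was not. Isg15, a ubiquitin-like protein that is attached to other proteins, was at 11.9, 4.40, 6.88 and 5.36 CPM in P60 Control and at 37.3, 19.4, 24.2 and 38.3 CPM in P60 T2MG. All T2MG libraries exceeded all Control libraries, and the log2 fold change was 2.06 (SE 0.56, adjusted p = 0.00739, edgeR). Usp18, which removes ISG15 and dampens receptor signaling, was at 41.7, 13.1, 35.3 and 17.1 CPM in Control and at 87.9, 59.1, 65.1 and 89.2 CPM in T2MG. The groups did not overlap, yet the log2 fold change of 1.49 (SE 0.54, adjusted p = 0.0369, edgeR) was called in only 3 of the 8 fits without 1 P60 library, those without Control replicate 1 or 3 or T2MG replicate 2. Herc6, the ligase that attaches ISG15 in mice, had a log2 fold change of 0.46 (SE 0.31, adjusted p = 0.251, edgeR).

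The IFIT proteins, which bind foreign RNA and block its translation, were all 3 called. Ifit3 was at 25.5, 11.4, 22.4 and 8.96 CPM in P60 Control and at 73.4, 52.6, 62.4 and 123 CPM in P60 T2MG, with no overlap and a log2 fold change of 2.19 (SE 0.53, adjusted p = 0.00341, edgeR). Ifit1 was at 12.6, 4.40, 7.24 and 5.28 CPM in Control and at 21.8, 16.4, 16.4 and 33.2 CPM in T2MG. Its log2 fold change of 1.57 (adjusted p = 0.0449, edgeR) was called in only 1 of the 8 fits without 1 P60 library, that without Control replicate 1. Both Mx GTPases, relatives of dynamin that trap viral nucleoproteins, were called. Mx1 was at 3.33, 1.56, 3.47 and 1.60 CPM in Control and at 8.03, 11.3, 7.02 and 11.6 CPM in T2MG, with no overlap and a log2 fold change of 1.92 (SE 0.44, adjusted p = 0.00212, edgeR). Mx2 is annotated as a polymorphic pseudogene in GENCODE M21 and had a log2 fold change of 1.56 (adjusted p = 0.0321, edgeR), a call lost without any 1 of Control replicates 1, 2 and 4 and T2MG replicates 1 and 2 (adjusted p up to 0.0877, edgeR).

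All 4 nucleic acid sensors were called, with log2 fold changes from 0.85 for Ddx58, which encodes RIG-I, to 2.27 for Zbp1, a sensor of Z-form nucleic acid. All 3 antiviral enzymes of nucleotides and RNA were called: Rsad2, or viperin, at 2.93, Cmpk2, a mitochondrial nucleotide kinase, at 1.67, and Isg20, an exonuclease, at 1.50. Isg20 was called although its genotype groups overlapped at P60, with Control at up to 11.6 CPM and T2MG from 10.7 CPM. Cmpk2 was at 34.6, 4.19, 8.61 and 4.32 CPM in Control and at 43.2, 38.6, 38.1 and 45.0 CPM in T2MG, so that Control replicate 1 nearly reached the T2MG libraries. Without that library its log2 fold change was 2.85 (adjusted p = 9.39e-06, edgeR), and without Control replicate 2, 3 or 4 its call was lost, with an adjusted p of up to 0.0528. The call of Isg20 was lost without Control replicate 2 or 4 or T2MG replicate 1 (adjusted p up to 0.11, edgeR), and that of Ddx58 without Control replicate 4 or T2MG replicate 4 (up to 0.0651).

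Of the 5 interferon-inducible GTPases, which attack vacuoles of intracellular microbes, the guanylate-binding proteins Gbp2, Gbp3 and Gbp7 were called, with log2 fold changes of 2.14, 1.17 and 1.03. The immunity-related GTPases Irgm1 and Igtp were not, at 0.30 (adjusted p = 0.28, edgeR) and 0.27 (adjusted p = 0.488, edgeR). The 3 nuclear proteins Sp100, Phf11b and Phf11d were called, with Sp100, a nuclear body protein, highest at 2.50. All 7 other induced genes were called. Among them Slfn5, a Schlafen family protein, was at 20, 6.25, 11.8 and 6.40 CPM in Control and at 65.1, 80.9, 82.6 and 105 CPM in T2MG, with no overlap and a log2 fold change of 2.91 (SE 0.47, adjusted p = 0.000103, edgeR). Ifi27l2a, an interferon-induced membrane protein, was at 52.0, 10.9, 13.2 and 8.88 CPM in Control and at 347, 102, 168 and 264 CPM in T2MG. The libraries of each genotype were spread widely, but the groups did not overlap and the log2 fold change was 3.37 (SE 0.71, adjusted p = 0.00106, edgeR). Without Control replicate 1 it was 4.32 (adjusted p = 8.51e-05, edgeR). Genes of these families with close paralogs, such as the guanylate-binding and IFIT genes, are uncertain, since the sources used here do not say how reads with several matches were counted.

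**Figure D2:**
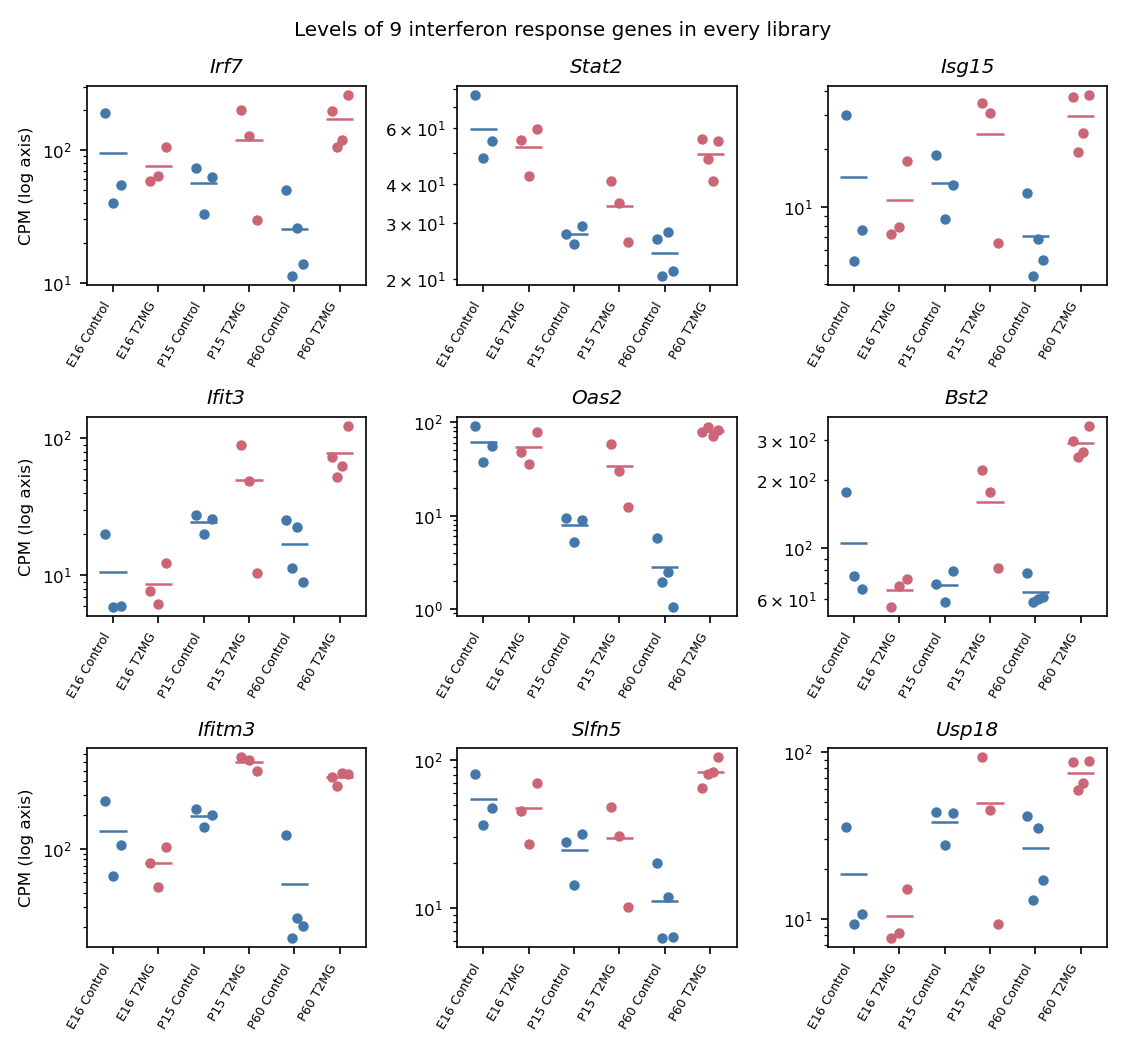
CPM (log axis) of 9 of the 40 genes in every library of the 6 groups; points are libraries, horizontal lines are group means, blue is Control and red is T2MG. For Oas2 the P60 T2MG libraries lie at 72.3 to 89.5 CPM and the P60 Control libraries at 1.04 to 5.75 CPM, while the E16 groups overlap in all 9 genes.

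At P15 the same comparison called 2 genes higher, Oas2 and Bst2, and 0 lower, where 11.7% of all genes tested were called higher and 12.3% lower. The median log2 fold change of the set was 0.60, beside 0.01 for all genes, and 35 of the 40 were positive. Oas2 was at 9.45, 5.21 and 8.92 CPM in P15 Control and at 59.2, 30.0 and 12.5 CPM in P15 T2MG. T2MG replicate 3 was lowest but above all Control libraries, and the log2 fold change was 2.11 (SE 0.53, adjusted p = 0.00771, edgeR). Bst2 was at 69.7, 57.9 and 79.7 CPM in Control and at 221, 176 and 81.5 CPM in T2MG, with T2MG replicate 3 next to the Control range and a log2 fold change of 1.21 (SE 0.33, adjusted p = 0.0138, edgeR). Ifitm3 was at 224, 156 and 202 CPM in Control and at 660.4, 620.2 and 495 CPM in T2MG. Its groups did not overlap, but its log2 fold change of 1.61 did not pass (SE 0.64, adjusted p = 0.0781, edgeR). The calls changed with the model: a fit of the P15 libraries alone called Oas2 and Ifitm3 (1.60, adjusted p = 0.00331, edgeR) but not Bst2 (1.19, adjusted p = 0.051, edgeR), and DESeq2 called Oas2, Bst2 and Ifitm3 (1.62, adjusted p = 0.0275). Without P15 Control replicate 2 only Oas2 was called. Without T2MG replicate 1, neither Oas2 nor Bst2 was called at P15 and Herc6 was called lower (log2 fold change -1.12, adjusted p = 0.0498, edgeR).

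One P15 T2MG library, replicate 3, stood apart from the other 2 for these genes. It was the lowest library of its group for 39 of the 40 genes, against 37.3% of all genes tested, and its median gap to the mean of the other 2 was -1.60 on the log2 CPM scale. Ifi27l2a was at 143, 112 and 11.1 CPM in P15 T2MG, Ifit1 at 36.7, 23.2 and 1.96 CPM, and Oasl2 at 168, 80.1 and 12.8 CPM. For these 3 genes the third library lay below all P15 Control libraries, of which the lowest were at 44.2, 7.45 and 23.8 CPM. Its summed level of 8 monocyte markers, such as Ly6c2 and Ccr2, was 21080 CPM, beside 4479 and 1750 CPM in the other P15 T2MG libraries and 1241 to 2116 CPM in P15 Control. Most of that sum was Chil3, at 19401 CPM beside 3311 and 892 CPM in the other 2. Without Chil3, which neutrophils also express, the remaining 7 markers summed to 1680 CPM in replicate 3, 1168 and 858 CPM in the other 2 and 644 to 760.0 CPM in Control. Neutrophil markers summed to 27245, 6055 and 21940 CPM in P15 T2MG replicates 1, 2 and 3 and to 2448 to 7367 CPM in Control (7 of 8 markers in the table), and none of the monocyte or neutrophil markers was at 0 in these libraries. The part of these cells in the result was not tested. Microglia markers summed to 6589 CPM in replicate 3, and to 11472 and 11264 CPM in the other 2, beside 34189 to 51428 CPM in P15 Control. Border-associated macrophage markers, 8 in all, summed to 3439 to 5657 CPM in P15 T2MG and 705 to 796 CPM in P15 Control. Lymphocyte markers summed to 236 to 281 CPM in T2MG and 68.7 to 191 CPM in Control, and neuron markers to 39.0 to 89.5 CPM and 6.93 to 27.6 CPM. None of these markers was at 0 in a P15 library, and their part in the P15 result was not tested.

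Leaving out P15 T2MG replicate 3 raised the count at P15 from 2 to 7 genes called higher, beside 8.53% of all genes, and the median log2 fold change to 0.86. The 5 genes gained were Oasl2, Oas1a, Ifit2, Rtp4 and Gbp7. Leaving out P60 Control replicate 1 as well, which changes the estimate of spread that all groups share, gave 14 genes called higher at P15, beside 12% of all genes. Among the 14 were Ifitm3 (log2 fold change 1.72, adjusted p = 0.00655, edgeR), Ifit3 (1.50, adjusted p = 0.0296, edgeR) and Oasl1 (2.11, adjusted p = 0.0253, edgeR).

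**Figure D3:**
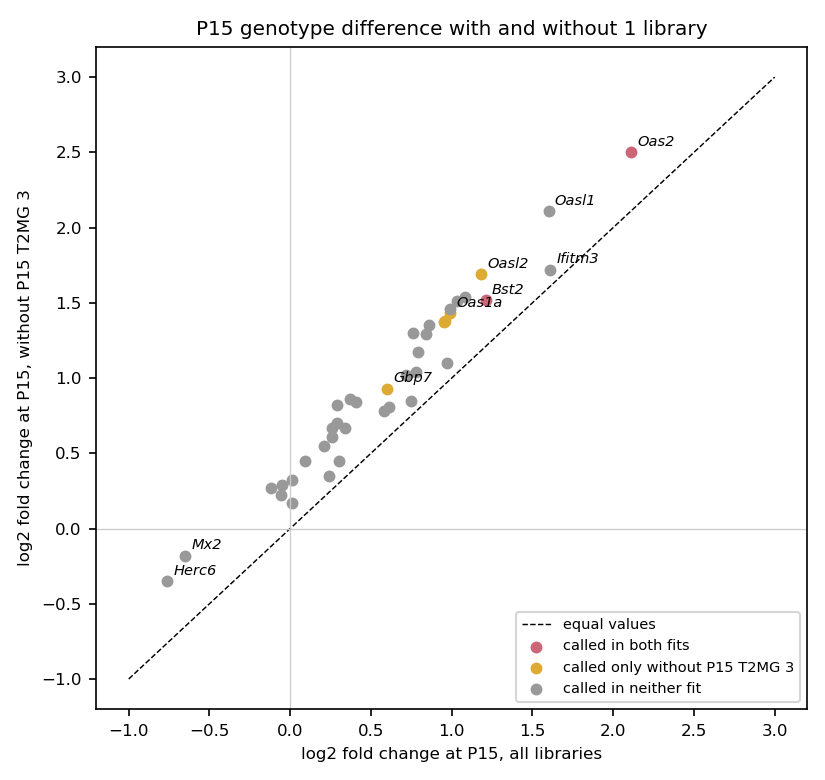
Log2 fold change of T2MG over Control at P15 for the 40 genes, with all libraries (x axis) and without P15 T2MG replicate 3 (y axis); the dashed line marks equal values. Oas2 and Bst2 were called in both fits, 5 genes only without that library, and the median of the 40 moved from 0.60 to 0.86.

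At E16 none of the 40 genes was called, 0 higher and 0 lower, by edgeR or by DESeq2, and 0 had an unadjusted p under 0.05 in edgeR. Of all genes tested, 0.527% were called higher and 2.67% lower. The median log2 fold change was -0.32, beside 0.04 for all genes, and 34 of the 40 were negative. The sign turned without 1 library. E16 Control replicate 1 was the highest of its group for 40 of 40 genes, against 33.6% of all genes tested, with a median gap of 1.29 on the log2 CPM scale. Irf7, for example, was at 189, 39.7 and 54.5 CPM in E16 Control and at 58.5, 63.3 and 105 CPM in E16 T2MG, and Isg15 at 30.3, 5.26 and 7.60 CPM against 7.31, 7.94 and 17.4 CPM. Without that library the median was 0.16, 33 of 40 genes were positive and 0 were called. Its summed monocyte and neutrophil markers were 492 and 551 CPM, beside 215 and 351 CPM and 40.6 and 491 CPM in the other E16 Control libraries. In E16 T2MG these markers summed to 221 to 352 CPM and 237 to 309.8 CPM. Microglia markers summed to 7404 to 15433 CPM in E16 Control and 3859 to 5863 CPM in E16 T2MG. Neuron markers summed to 239 to 548 CPM and 692 to 871 CPM, and astrocyte markers to 76.9 to 196 CPM and 204 to 261 CPM. The part of these markers in the E16 result was not tested.

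**Figure D4:**
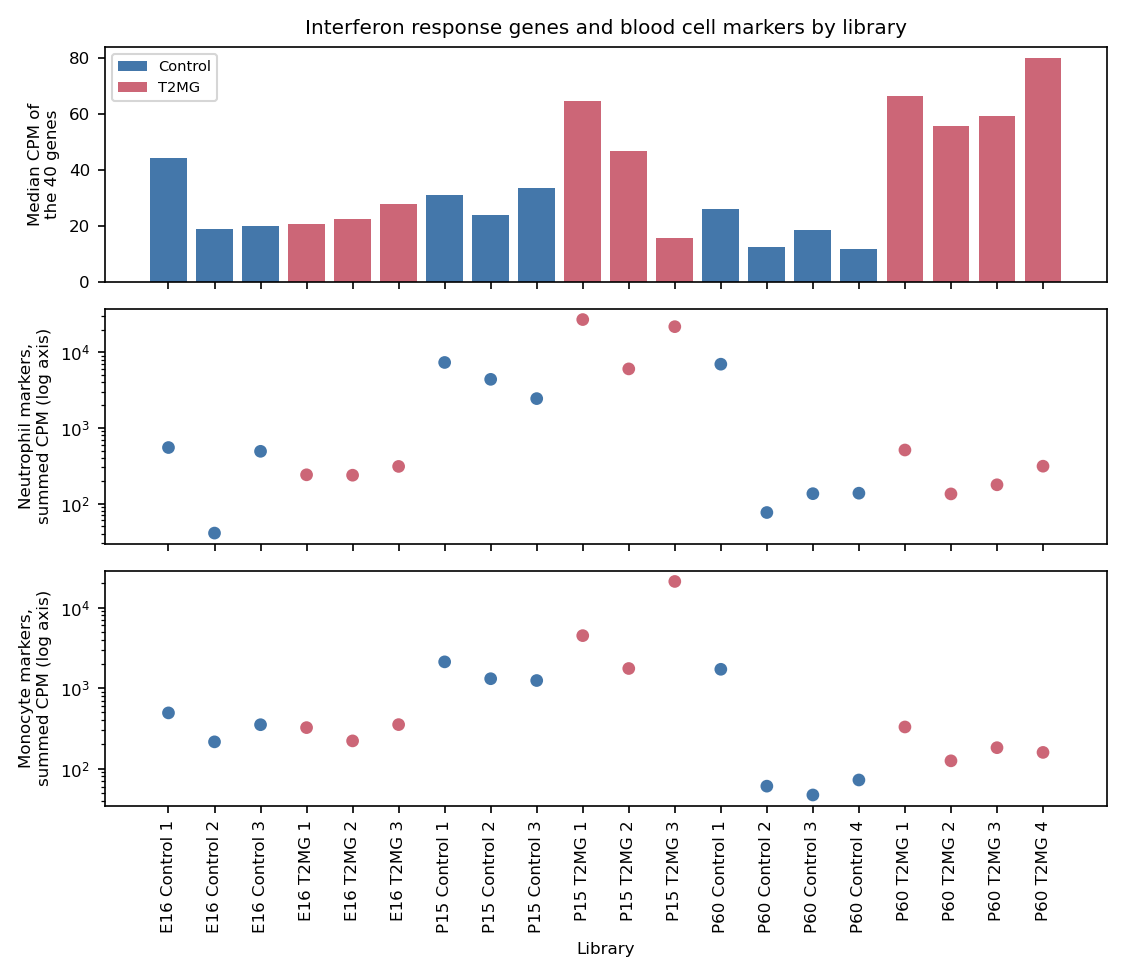
Median CPM of the 40 genes (bars, top) and summed CPM of neutrophil and monocyte markers (points, log axes) in each of the 20 libraries; blue is Control and red is T2MG. The median is 15.6 CPM in P15 T2MG 3 beside 46.7 and 64.7 CPM in the other 2, and 26.1 CPM in P60 Control 1 beside 11.9 to 18.5 CPM in the other 3.

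At P60, Control replicate 1 stood apart as well. It was the highest of the 4 Control libraries for 31 of the 40 genes, against 45.4% of all genes tested, with a median gap of 0.90 on the log2 CPM scale. The gap was widest for Oas3 (2.73), Ifitm3 (2.69) and Cmpk2 (2.47). Its neutrophil markers summed to 6987 CPM, beside 76.0 to 137 CPM in the other 3, its monocyte markers to 1711 CPM beside 47.1 to 72.3 CPM, and its lymphocyte markers (7 of 8 in the table) to 262 CPM beside 3.11 to 6.32 CPM. None of these markers was at 0 in Control replicate 1. Without this library 36 genes were again called higher at P60, beside 31.1% of all genes, of which 35 were shared with the full fit: Oas3 was gained (log2 fold change 3.50, adjusted p = 0.000781, edgeR) and Mx2 was lost (adjusted p = 0.0512, edgeR). The median log2 fold change was 2.14, so the P60 difference was as large without that library. Among the genes named above it also moved Oas2 from 4.84 to 5.47, Sp100 from 2.50 to 3.27 and Zbp1 from 2.27 to 3.31. Without both libraries 39 genes were called, beside 32.7% of all genes, and Irgm1 was the gene not called (log2 fold change 0.42, adjusted p = 0.119, edgeR).

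Markers of other macrophages moved with genotype at P60. The summed level of 8 markers of border-associated macrophages, such as Mrc1 and Cd163, was 8246 to 14314 CPM in P60 T2MG and 236 to 711 CPM in P60 Control, with none at 0. Their part in the interferon result was not tested. Monocyte markers summed to 125 to 329 CPM in P60 T2MG, above Control replicates 2 to 4 and below Control replicate 1, whose values are given above, and plasmacytoid dendritic cell markers to 122 to 139.8 CPM, beside 126 to 176 CPM in Control. Lymphocyte markers summed to 29.5 to 121 CPM in P60 T2MG, beside 3.11 to 6.32 CPM in Control replicates 2 to 4 and 262 CPM in Control replicate 1, with 1 marker at 0 in Control replicate 3 and 2 in Control replicate 4. Neuron markers summed to 40 to 51.3 CPM in T2MG and 3.98 to 27.0 CPM in Control, with 1 of 8 at 0 in Control replicate 2. Erythroid markers summed to 98.0 to 323 CPM in T2MG and 45.3 to 57.9 CPM in Control, with 3 of 5 at 0 in every P60 library. The part of these markers in the result was not tested.

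The genotype effect was then compared between stages, using libraries of both stages. From E16 to P15 it rose for Bst2 (difference of log2 fold changes 1.90, SE 0.47, adjusted p = 0.0115, edgeR) and Oas2 (2.29, SE 0.72, adjusted p = 0.0383, edgeR), 2 genes higher and 0 lower, beside 8.97% and 7.31% of all genes. The median difference over the 40 genes was 0.81, beside -0.02 for all genes, but fell to 0.30 without E16 Control replicate 1, where 1 of the calls was lost. Only 1 gene was called, too, without any 1 of E16 T2MG replicates 1 and 2, the 3 P15 Control libraries and P15 T2MG replicate 1. A fit with replicate numbers as a block called neither Bst2 (1.66, adjusted p = 0.0582, edgeR) nor Oas2 (2.08, adjusted p = 0.0686, edgeR). Without P15 T2MG replicate 3, 5 genes were called, beside 7.63% of all genes called higher. From P15 to P60 it rose for Oas2 (2.74, SE 0.71, adjusted p = 0.0254, edgeR) and Slfn5 (2.64, SE 0.69, adjusted p = 0.0266, edgeR), again 2 higher and 0 lower, beside 5.63% and 2.40% of all genes. All 40 differences were positive, with a median of 1.17 beside 0.11 for all genes, and 20 had an unadjusted p under 0.05. These 2 stage comparisons share the P15 libraries. The count from P15 to P60 was 13 without P60 Control replicate 1, beside 13.8% of all genes called higher. It was 10 without both libraries, beside 13.7% of all genes, and 0 without P15 Control replicate 1 or P15 Control replicate 3. It was 4 without P15 T2MG replicate 1 or 2, and 1 without P60 Control replicate 4 or P60 T2MG replicate 4.

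In the Control libraries the set did not move as a block from E16 to P15. At P15, 8 genes were higher and 4 lower, beside 24.0% and 26.7% of all genes tested, and the median log2 change was 0.02. The genes that fell were Stat2 (-1.11, SE 0.20, adjusted p = 0.000281, edgeR), Oas2 (-2.96, SE 0.54, adjusted p = 0.000291, edgeR), Parp14 (-1.86, adjusted p = 0.000829, edgeR) and Mx1 (-1.39, adjusted p = 0.0262, edgeR). Oas2 was at 91.4, 37.2 and 55.5 CPM in E16 Control, above all P15 Control libraries. The genes that rose were Igtp, Phf11b, Irf9, Isg20, Phf11d, Gbp2, Irgm1 and Herc6, with log2 changes from 0.70 to 1.78. Igtp rose by 1.51 (SE 0.34, adjusted p = 0.00163, edgeR) and Phf11b by 1.71 (SE 0.39, adjusted p = 0.00181, edgeR). Without E16 Control replicate 1 the median change was 0.68 and 10 genes were higher and 3 lower, and without E16 Control replicate 2 or 3 only 3 were higher. Without P15 Control replicate 1 or 3, 5 were higher. Cell type markers moved between these stages as well. Microglia markers summed to 7404 to 15433 CPM in E16 Control and 34189 to 51428 CPM in P15 Control. Neutrophil markers summed to 40.6 to 551 CPM and 2448 to 7367 CPM. Border-associated macrophage markers summed to 5318 to 6065 CPM and 705 to 796 CPM, and neuron markers to 239 to 548 CPM and 6.93 to 27.6 CPM. Their part in the change with stage was not tested.

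From P15 to P60 in Control, 0 genes were higher and 3 lower, beside 5.61% and 13% of all genes. The 3 were Gbp2 (-2.18, SE 0.47, adjusted p = 0.00599, edgeR), Ifitm3 (-2.01, SE 0.59, adjusted p = 0.0271, edgeR) and Zbp1 (-1.88, SE 0.62, adjusted p = 0.0423, edgeR). The median log2 change was -0.68, beside -0.01 for all genes, and 36 of 40 were negative. In this comparison same-numbered libraries deviated together, and a fit with the replicate block called 9 genes lower. Without P60 Control replicate 1, 12 genes were lower. Over all genes, 3572 were called lower in that fit, beside 2019 with all libraries. Among the 12 were Cmpk2 (-2.48, adjusted p = 0.000107, edgeR), Oas3 (-4.17, adjusted p = 0.000429, edgeR) and Sp100 (-1.97, adjusted p = 0.000193, edgeR). Gbp7 was higher (0.86, adjusted p = 0.0186, edgeR), beside 8.83% of all genes. Without any 1 of P60 Control replicates 2, 3 and 4 or of P15 Control replicates 1 and 3, only 1 gene was called lower. Neutrophil markers summed to 2448 to 7367 CPM in P15 Control. In P60 Control they summed to 76.0 to 137 CPM in replicates 2 to 4 and 6987 CPM in replicate 1. Monocyte markers summed to 1241 to 2116 CPM in P15 Control, and to 47.1 to 72.3 CPM and 1711 CPM in the same P60 libraries. The part of these cells in the change with stage was not tested. By their group means, Oas2 and Slfn5 were highest at E16 and lowest at P60 in Control, and higher at P60 than at E16 in T2MG; the T2MG stages were not tested.

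**Figure D5:**
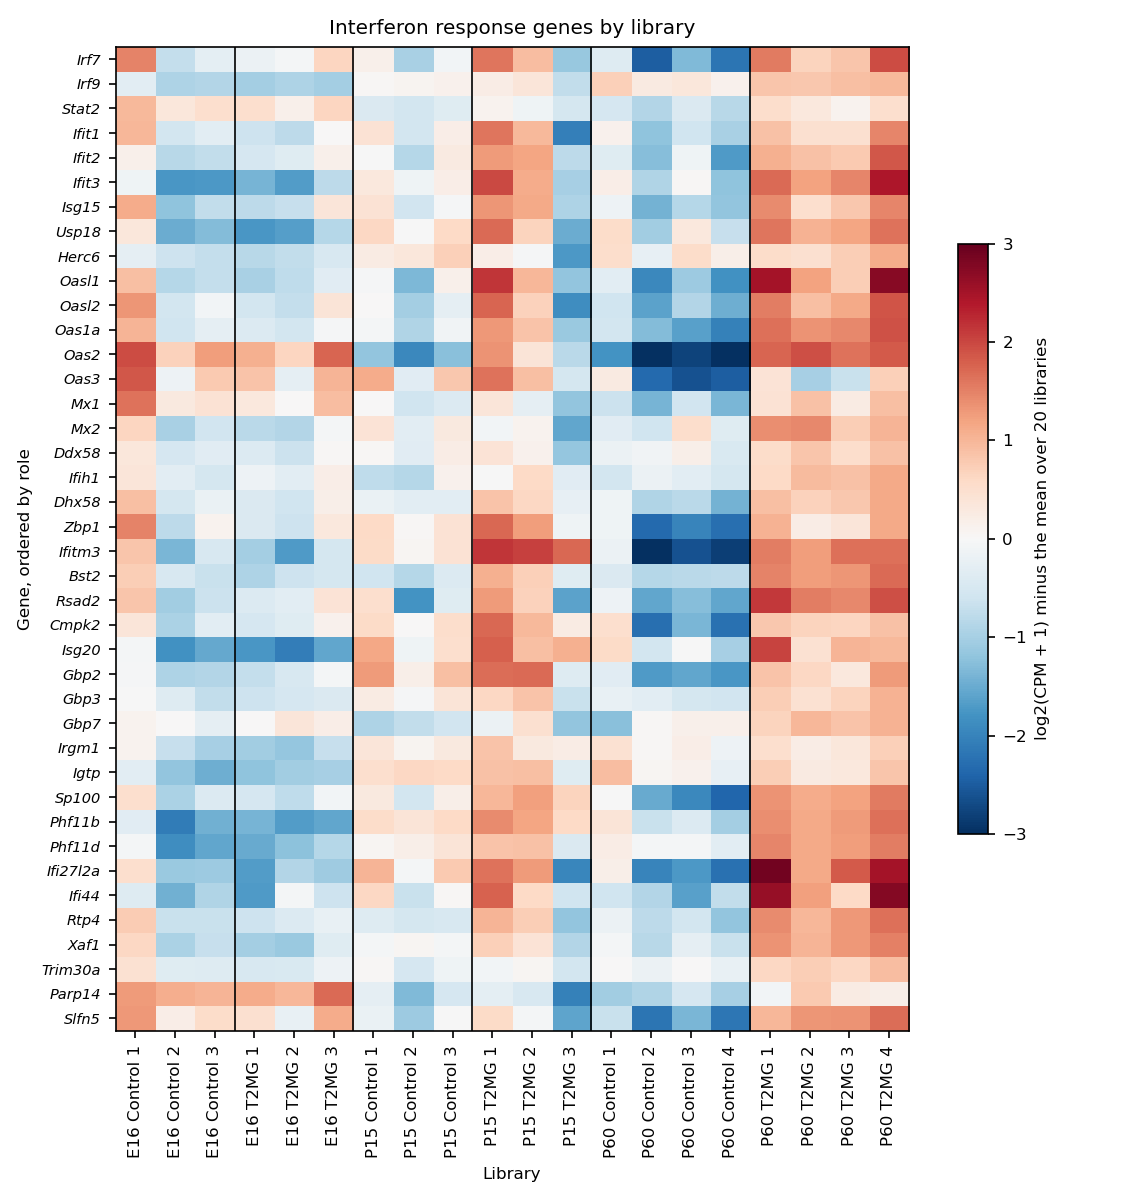
Log2(CPM + 1) of the 40 genes (rows, ordered by role) in the 20 libraries (columns, grouped by stage and genotype), shown as the difference from each gene's mean over all 20 libraries. The P60 T2MG columns are red for nearly all genes, E16 Control 1 is redder than its group, and P15 T2MG 3 is bluer than its group.

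Other genes of the pathway moved in both directions. Of 63 further genes of the pathway, none a member, 43 were tested. At P60, 13 were higher and 11 lower in T2MG, 30.2% and 25.6% of the 43 beside 23.5% and 15.7% of all genes tested. Tmem173, which encodes the DNA-sensing adaptor STING, fell from 658 ± 93.8 to 108 ± 10.5 CPM (mean ± SD, n = 4 each), a log2 fold change of -2.61 (adjusted p = 7.60e-10, edgeR). Aim2, a sensor of cytosolic DNA, fell from 44.8 ± 7.01 to 16.7 ± 2.12 CPM (-1.42, adjusted p = 2.97e-06, edgeR). Trim25, the ubiquitin ligase that activates RIG-I, rose from 33.2 ± 8.60 to 114 ± 15.8 CPM (1.78, adjusted p = 1.60e-06, edgeR), and Ifi204, a DNA-binding interferon-induced protein, from 13 ± 8.46 to 143 ± 23.3 CPM (3.45, adjusted p = 2.44e-06, edgeR). Of the 7 receptor and kinase genes 3 were higher (Ifnar1, Ifnar2 and Tyk2) and 2 lower (Ifngr1 and Ifngr2), with log2 fold changes between -0.64 and 0.88. Unlike the transcription factors of the set, the 7 in this list moved both ways, 1 higher and 3 lower, with a median log2 fold change of -0.19. At P15, 3 of the 43 (6.98%) were higher and 4 (9.3%) lower, beside 11.7% and 12.3% of all genes, among them Tmem173 (-1.91, adjusted p = 8.80e-07, edgeR), Aim2 (-1.66, adjusted p = 1.37e-05, edgeR), Tlr3 (-2.80, adjusted p = 7.29e-05, edgeR) and Ifi204 (1.53, adjusted p = 0.0144, edgeR). At E16, 0 were higher and 6 (14%) lower, beside 0.527% and 2.67% of all genes, led by Tmem173 (-1.07, adjusted p = 0.000997, edgeR), Aim2 (-1.08, adjusted p = 0.00441, edgeR), Irf8 (-0.74, adjusted p = 0.01, edgeR) and Ptpn6 (-0.61, adjusted p = 0.0213, edgeR).

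Transcripts of the interferons themselves were nearly undetectable. Of 21 ligand genes in the list only Ifng, the type II interferon made by lymphocytes, passed the filter on low counts. All type I interferon genes together had 0 to 11 counts in a library, with 11 in P60 T2MG replicate 2 and 7 in P60 Control replicate 4. At this depth, no genotype difference in type I interferon transcripts could be read from these libraries. Ifng had 382 counts in P15 T2MG replicate 3, 70 and 171 in the other P15 T2MG libraries and 18 to 121 in P15 Control. At P60 it had 88 counts in Control replicate 1, 0 to 1 in the other Control libraries and 0 to 10 in T2MG.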

How the data were processed

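RNA of sorted microglia was measured in 20 libraries of 6 groups. Per the labels' protocols, a SMART-Seq kit for very small inputs gave the cDNA, and the authors deposited raw counts per gene symbol. TopHat2 (0.7), Cufflinks (2.2.1) and mm10 are named in the submitters' processing notes; the sources used here name no counting tool and no use of strand, so overlapping and antisense genes are uncertain. Entries that were dates in place of symbols, 27 in all, were left out (0.122% to 0.256% of counts). In R 4.3.3, edgeR 4.0.16 kept 15568 of 24394 genes (filterByExpr by group), scaled libraries by TMM and fitted 1 group-means model with quasi-likelihood F tests. CPM use TMM-scaled library sizes; per-kilobase values divide them by exon length in GENCODE M21. Replicate libraries differed by more than sampling noise; p-values measure the spread between these libraries.

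The 40 genes, the further lists and the rule for genes shown in every library were chosen with earlier results of these data known. That rule named 10 genes standing for the roles, the up to 5 called genes with the smallest adjusted p in each comparison, and the 3 genes with the widest gap in P60 Control 1 and in P15 T2MG 3. Irf8 and other pathway genes were named as the 4 called genes of smallest adjusted p; receptor genes, Oasl1, Ddx58, Rsad2, Isg20 and other members given by their fold change alone were named to account for their group. Alternatives were no filter beyond 1 count, RLE scaling, DESeq2 1.42.0, only the stages compared, each library left out in turn, both libraries named above left out, and a replicate block. Same-numbered libraries deviated together in Control at P15 and P60 (correlations 0.31, 0.26 and 0.10), but not in every pair of the other comparisons. Tests were checked on simulated counts, drawn independently for each gene and library. These hold no shift of the whole set in 1 library, so the check does not cover such shifts.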

Additional observations from a re-analysis of the deposited data

Results flagged for a closer look

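In P60 Control, 1 library lay far from the other 3 for 10 of the 40 genes, by Dixon's gap test. In all, 80 groups of 4 libraries were tested, and chance flags about 1 in 20 single groups. The 40 genes were measured in the same libraries, so these groups are not independent and the count cannot be set against that rate. Genes outside the 40 were not put through this test, so the count has no share of all genes beside it. In 9 of the 10 genes the library was P60 Control 1, which was highest of its group for 45.4% of all genes tested and lowest for 27.5%. It was highest for Oas3 (11 CPM, next 0.994), Ifi27l2a (52.0, next 13.2), Ifitm3 (133, next 23.8), Bst2 (77.7, next 61.3), Rsad2 (16.2, next 6.88), Zbp1 (15.4, next 3.55), Cmpk2 (34.6, next 8.61) and Gbp2 (16.4 CPM, next 6.51). It was lowest for Gbp7 (47.0 CPM, next 115). For Mx2 the library was P60 Control 3 (5.28 CPM, next 2.43).

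The genotype effect differed between stages for 3 genes by a test of the difference itself. From E16 to P15 the difference of log2 fold changes was 1.90 for Bst2 and 2.29 for Oas2. From P15 to P60 it was 2.74 for Oas2 and 2.64 for Slfn5. Each comparison called 2 of the 40 genes higher. Of all genes tested, 8.97% were called higher from E16 to P15 and 5.63% from P15 to P60. The set was thus not called more often than all genes. With 1 library left out, the counts were 1 to 5 from E16 to P15 and 0 to 13 from P15 to P60.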

How the results depend on the processing

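The count of genes called at P60 stayed between 29 and 36 when 1 library was left out and was 34 with a replicate block. Leaving out 1 library gave 0 to 7 higher and 0 to 1 lower at P15, 3 to 10 higher and 3 to 5 lower from E16 to P15 in Control, 0 to 1 higher and 1 to 12 lower from P15 to P60 in Control, and 1 to 5 and 0 to 13 genes with a stronger genotype effect at P15 than at E16 and at P60 than at P15. Without both P60 Control 1 and P15 T2MG 3 these were 14 higher at P15, 1 higher and 14 lower from P15 to P60 in Control, 11 and 10. DESeq2 called 6 lower from P15 to P60 in Control and 6 with a stronger effect at P60 than at P15. The replicate block gave 0 genes with a stronger effect at P15 than at E16 (Bst2 1.66, adjusted p = 0.0582, and Oas2 2.08, adjusted p = 0.0686, edgeR) and 9 lower from P15 to P60 in Control. At P15 the block called Oas2 and Ifitm3 (1.61, adjusted p = 0.0415, edgeR) but not Bst2 (1.11, adjusted p = 0.0527, edgeR). The cause of these shifts was not tested.

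Signs turned only for genes that were not called at that stage. At E16 Cmpk2 was 0.02 with RLE scaling and with DESeq2 and 0.06 with the replicate block, and Irf7 was 0.01 with the block. At P15 Irf9 was 0.22 without both libraries, and with the block Usp18 was -0.03, Mx1 -0.05 and Ifi27l2a -0.12. With 1 library left out, E16 log2 fold changes ranged from -0.68 to 0.68 for Irf7, -0.32 to 0.03 for Stat2, -1.22 to 0.04 for Usp18, -0.60 to 0.56 for Ifit3, -0.91 to 0.76 for Isg15, -1.12 to 0.08 for Oasl2, -0.83 to 0.12 for Mx1, -0.55 to 0.22 for Oas2, -0.86 to 0.11 for Oas1a, -0.60 to 0.18 for Slfn5, -0.83 to 0.25 for Oas3, -0.30 to 0.39 for Cmpk2 and -1.01 to 0.02 for Ifit1. At P15 they ranged from -0.26 to 0.22 for Irf9, -0.48 to 0.86 for Usp18, -0.43 to 0.45 for Mx1, -0.27 to 0.67 for Slfn5, -0.31 to 0.70 for Oas3 and -0.23 to 0.82 for Ifi27l2a.

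With 3 or 4 libraries per group, differences of the size seen at E16 lie within the spread between libraries. Reads of amplified cDNA carry no molecular identifiers and do not count molecules. Signal of rare cells and level per cell cannot be separated in these data.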
